A study of Mus musculus with 15 samples.

Results

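Conventional DC2s of the mediastinal lymph node (LN) were compared with DC2s of the spleen, gene by gene. The LN cells were sorted as CD11b+ CD11c+ MHC class II+ DCs and the splenic cells as CD4+ CD11c+ MHC class II+ DCs, which the study's methods give as CD11b+ too, with 3 libraries each, and both came from naive female C57BL/6 mice of 6 to 8 weeks with no treatment or engineered allele. Each library was made from cells pooled from 5 mice. The 6 libraries belong to a set of 15 polyA RNA-seq libraries of 5 murine phagocyte subtypes, which also holds LN CD103+ DCs and splenic CD8+ DCs, the DC1s of the same organs, and splenic Ly6C+ monocytes. A gene entered the comparison with more than 1 CPM (counts scaled to a common library size) in at least 3 of the 6 DC2 libraries, and 13145 of the 38924 annotated genes did. The LN cells were migratory DCs gated as MHC class II high, the LNs and spleens were taken from different cohorts of mice, and splenic DC2s were gated on CD4 where LN DC2s were not. Organ, migratory state, gate and cohort therefore cannot be told apart in any difference given here.

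DC2s are the conventional DCs that depend on IRF4 and, in the spleen, on Notch2 signaling, and they are known for presenting exogenous peptides on MHC class II to CD4 T cells. Splenic CD4+ DC2s live in the spleen and reach its bridging channels through the oxysterol receptor EBI2. Migratory DC2s leave a peripheral tissue such as the lung through lymphatic vessels with the help of CCR7 and reach the draining LN after homeostatic maturation, a program that remodels chemokine receptors, the cytoskeleton, costimulatory molecules and antigen processing without infection.

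The 3 LN libraries held between 4531243 and 9094965 counts assigned to genes and the 3 splenic libraries between 5492796 and 7139549, with 16980 to 17693 genes detected in the former and 15292 to 16229 in the latter. The share of unique reads in no exon was 25 to 30.6% against 23 to 28.4%, and mitochondrial transcripts took 0.986 to 1.33% against 1.02 to 1.40% of the counts. Markers of other cells were summed per library to see which of them moved with the organ. T cell markers stood at 241 to 338 CPM in LN DC2s and 61.1 to 71.9 CPM in splenic DC2s, and 13 of their 14 tested genes were higher in LN DC2s. Tcf7 gave 44.6% of the T cell sum. Monocyte markers summed to 1757 to 2797 CPM in LN DC2s against 1100 to 1357 CPM, with 8 of 10 higher in LN DC2s and Lyz2 giving 47.0% of the sum. The B cell sum was 222 to 395 against 541 to 725 CPM, but only Cd22 of 11 tested members was lower and none was higher. With the replicate block 2 were higher and 2 lower, and without LN library 3 or splenic library 1 there were 2 lower. Ighm made up 57.3% of the sum, at 199, 151 and 299 CPM in the LN libraries and 266, 364 and 369.6 CPM in the splenic libraries. That gene did not pass the test (log2 fold change -0.62 ± 0.26, adjusted p = 0.0719) and did so with the replicate number as a block (adjusted p = 0.0236). Macrophage markers summed to 1003 to 1563 against 1554 to 1981 CPM, with overlap, while 9 of 15 members were higher in LN DC2s and 3 lower. DC1 markers summed to 379 to 555 against 760 to 1059 CPM, of which Wdfy4 gave 62.0%, with 4 of 9 members higher and 3 lower. Plasmacytoid DC markers stood at 268 to 320 against 159 to 181 CPM, with 4 of 8 higher and none lower, and stromal markers at 104 to 145 against 93.9 to 99.3 CPM, with 5 of 6 higher and 1 lower. The mast cell and basophil list, at 81.4 to 129 against 563 to 606 CPM, was Kit for 99.1% of its sum, and its markers Mcpt8 and Ms4a2 were at 0 in all 6 libraries. Neutrophil markers overlapped between the organs (18.4 to 31.3 against 17.7 to 32.8 CPM), with Ly6g, Elane, Mpo, S100a9 and Lcn2 at 0 throughout. Csf3r made up 92.3% of the neutrophil sum. Lung epithelial markers stayed at 4.43 to 5.38 against 8.41 to 10.4 CPM, with Sftpc, Sftpa1, Sftpb, Scgb1a1, Scgb3a2 and Krt18 at 0. Epcam made up 72.55% of that sum. In sorted bulk samples, fewer cells of a type and less RNA per cell cannot be told apart.

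**Figure D1:**
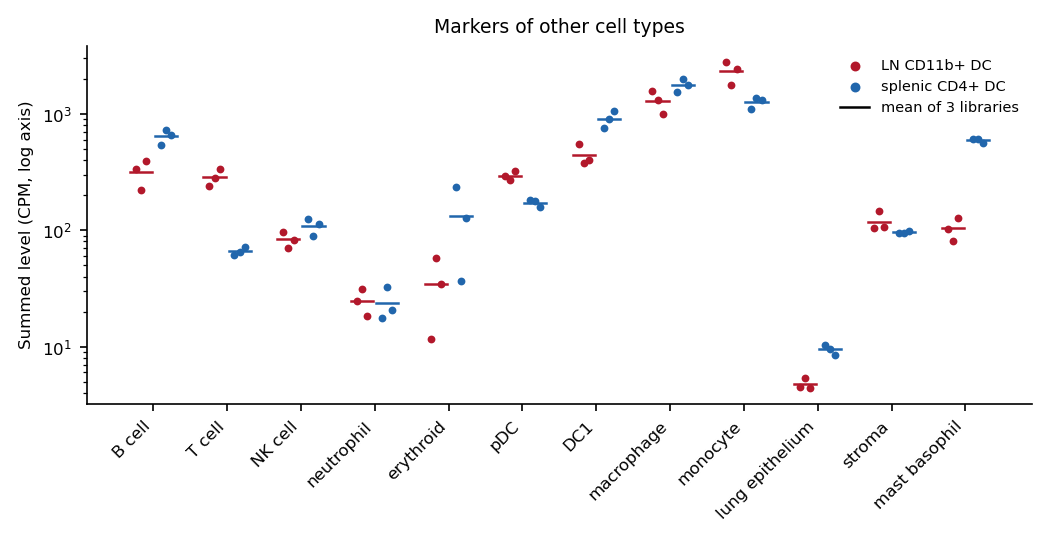
Summed CPM (log axis) of 12 marker lists in each LN CD11b+ and splenic CD4+ DC library, 1 point per library. The T cell sum lies at 241 to 338 CPM in LN DC2s and at 61.1 to 71.9 CPM in splenic DC2s, and the neutrophil sums overlap between the organs.

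Of the 13145 genes, 4585 (34.9%) differed between LN and splenic DC2s at an adjusted p below 0.05 in edgeR's quasi-likelihood test. 2603 genes (19.8%) were higher in LN DC2s and 1982 (15.1%) were lower. In 3075 genes (23.4%) all 3 LN libraries lay above all 3 splenic libraries, and in 2280 (17.3%) all 3 lay below. The median log2 fold change over the genes tested was 0.03, near 0 as TMM scaling sets it. Genes with large differences were more often higher in LN DC2s: a log2 fold change of at least 3 in size was called as higher in 646 genes and as lower in 164. 111 called genes had 0 counts in all 3 splenic libraries and 12 had 0 counts in all 3 LN libraries. Below, log2 fold changes are LN minus spleen with a standard error. That error is the size of the log2 fold change over the square root of the test's F statistic, from the fit of all 15 libraries. Adjusted p-values are edgeR's with the Benjamini-Hochberg correction over all 13145 genes, and n is 3 libraries in each organ. A gene found in only 1 organ passed the expression filter through that organ, so the counts given for gene lists describe the members tested and are no test of the list.

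**Figure D2:**
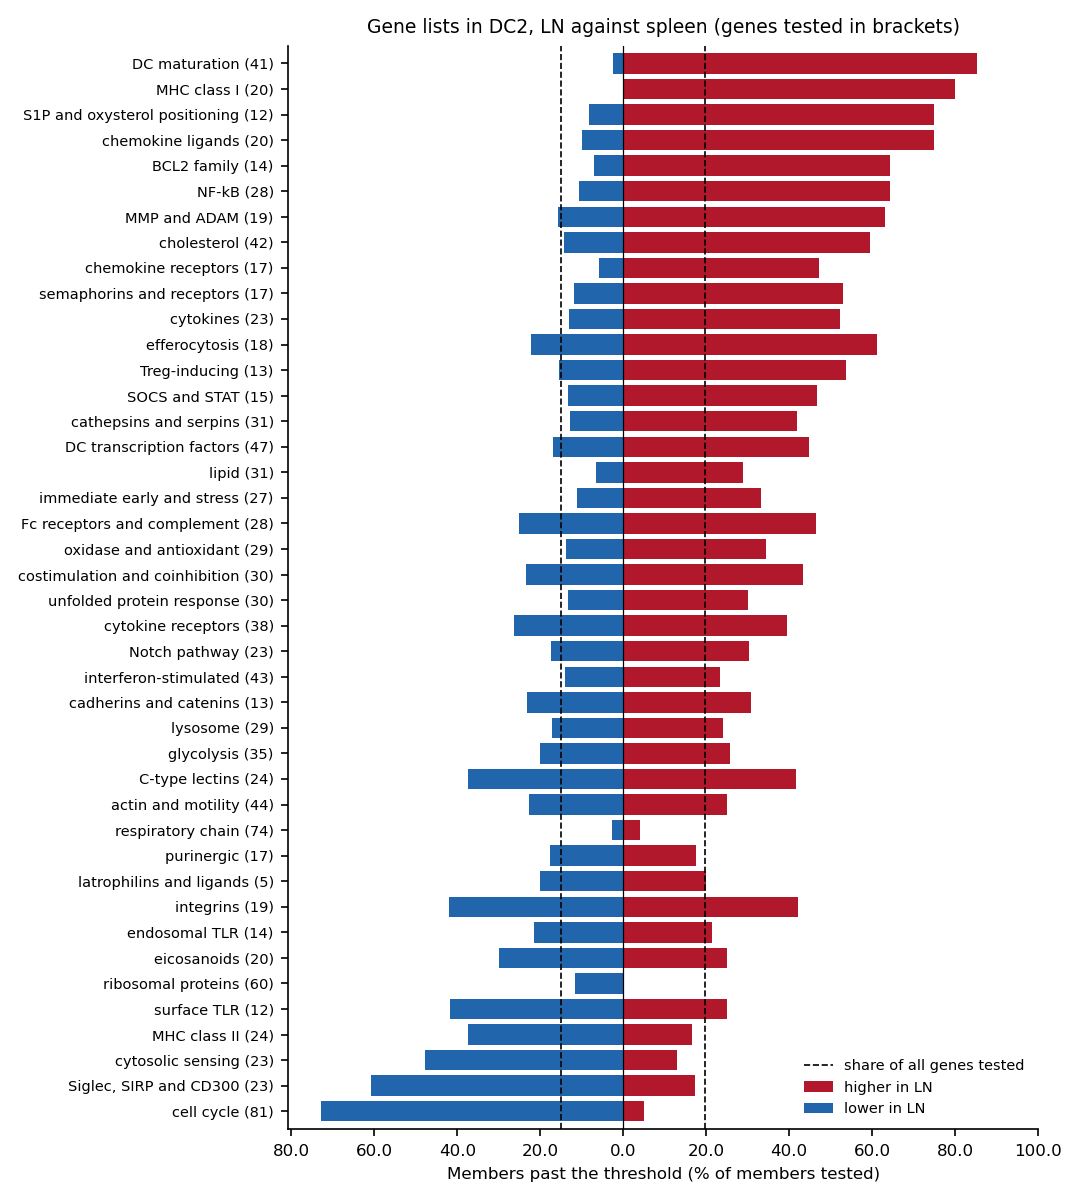
Percent of the tested members of each of 42 gene lists called higher (right) or lower (left) in LN DC2s, with the shares over all genes tested, 19.8% and 15.1%, as dashed lines. Maturation genes and chemokine ligands lie far to the right, cell cycle genes far to the left, and the respiratory chain near 0 on both sides. None of the ribosomal protein genes was higher and 11.7% were lower.

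The markers used to define DC2s were checked first. All 7 genes of the sort and gate were detected in every library, and 5 of the 7 were lower in LN DC2s. Cd4, the marker of the splenic gate, was at 27.9, 30.1 and 59.1 CPM in the LN libraries and 146, 91.9 and 193 CPM in the splenic libraries (log2 fold change -1.89 ± 0.54, adjusted p = 0.00986). The organs did not overlap, and leaving out LN library 1 took the call away (adjusted p = 0.0508). Itgam, which encodes CD11b, was at 122, 88.97 and 118 CPM in the LN libraries and 258, 423 and 348 CPM in the splenic libraries (log2 fold change -1.65 ± 0.33, adjusted p = 7.37e-04), lower in every LN library than in any splenic library. By the study's methods the splenic DC2s were CD11b+ as well. Itgax, which encodes CD11c, was also lower without overlap, at 332, 305 and 232 CPM in the LN libraries and 911, 798 and 826 CPM in the splenic libraries (log2 fold change -1.54 ± 0.18, adjusted p = 3.22e-06). Sirpa, an inhibitory receptor of DC2s that binds CD47, was lower in LN DC2s at -1.29 ± 0.28 (adjusted p = 0.00145). Of the 13 genes of DC lineage 4 were higher, 3 lower and 6 did not pass. Flt3, the growth factor receptor of the lineage, stood at 739, 1001 and 907 CPM in the LN libraries and 821, 1227 and 841 CPM in the splenic libraries (log2 fold change -0.13 ± 0.28, adjusted p = 0.768), and Zbtb46, a transcription factor of conventional DCs, at 332, 418 and 372 CPM in the LN libraries and 367, 528 and 419 CPM in the splenic libraries (log2 fold change -0.23 ± 0.18, adjusted p = 0.358). Irf4, the DC2 factor, at 72.2, 50.7 and 94.5 CPM in the LN libraries and 35.05, 35.5 and 59.9 CPM in the splenic libraries, did not pass the test either (log2 fold change 0.74 ± 0.34, adjusted p = 0.107). Irf8 was higher in LN DC2s at 2.21 ± 0.27 (adjusted p = 4.41e-06), and Id2, an inhibitor of E proteins, at 1.41 ± 0.26 (adjusted p = 2.71e-04). The DC1 receptor gene Xcr1 stayed between 1.32 and 7.74 CPM in all 6 libraries. Xcr1 does not stand for the DC1 markers as a list. Of the 9 tested, 4 were higher and 3 lower in LN DC2s, with log2 fold changes from -3.11 to 3.25. Clec4a4, which encodes the DCIR2 receptor used to recognize splenic DC2s, had the largest difference of the 20 identity genes, with 9.30, 7.12 and 12.2 CPM in the LN libraries and 154, 212 and 228 CPM in the splenic libraries (log2 fold change -4.39 ± 0.46, adjusted p = 1.42e-06). Esam, an adhesion molecule of Notch-dependent splenic DC2s, was lower in LN DC2s as well, at -1.29 ± 0.27 (adjusted p = 0.00116).

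Genes of DC maturation were the list with the broadest difference. Of 42 listed genes 41 were tested, and 35 were higher in LN DC2s, 1 was lower (2 without LN library 3) and 5 did not pass, with a median log2 fold change of 2.39. All 10 genes of migration and cell shape were higher, with a median of 4.19. Ccr7 (ENSMUSG00000037944, chromosome 11, 99144196 to 99155077, GRCm38), the receptor that guides DCs and naive T cells along CCL19 and CCL21, was at 2154, 2276 and 2497 CPM in the LN libraries and 97.3, 171 and 226 CPM in the splenic libraries (log2 fold change 3.81 ± 0.31, adjusted p = 4.32e-08). All 3 LN libraries were far above the splenic range, and the means differed 14.01-fold. T cells express Ccr7 too, and the T cell markers rose in the same libraries, to a sum of at most 338 CPM; their part in the Ccr7 level was not tested. Fscn1 (ENSMUSG00000029581, chromosome 5, 142960343 to 142973185), whose product fascin bundles actin in dendrites, was at 3175, 4018 and 2287 CPM in the LN libraries and 94.1, 173 and 81.3 CPM in the splenic libraries (log2 fold change 4.77 ± 0.38, adjusted p = 3.23e-08), with every LN library above every splenic one. Cacnb3, a calcium channel subunit, followed at 1064, 888 and 707 CPM in the LN libraries and 18.03, 11.9 and 31.5 CPM in the splenic libraries (log2 fold change 5.43 ± 0.36, adjusted p = 3.84e-09). The largest fold change in the list was that of Nudt17, a nudix hydrolase, at 540.4, 633 and 534 CPM in the LN libraries and 4.48, 10.4 and 8.74 CPM in the splenic libraries (log2 fold change 6.19 ± 0.36, adjusted p = 1.30e-09). Genes of this group were thus high in all 3 LN libraries and low, not absent, in the splenic ones.

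Maturation genes of signaling and transcription went the same way, with 20 of 22 higher and 1 lower. Socs2, a feedback inhibitor of cytokine receptors, was at 1092, 1455 and 658 CPM in the LN libraries and 18.4, 48.8 and 30.4 CPM in the splenic libraries (log2 fold change 5.04 ± 0.39, adjusted p = 2.02e-08), and although the LN libraries varied, none came near the splenic range. Tnfrsf4, which encodes OX40, reached 604, 879 and 624 CPM in the LN libraries against 13.4, 29.4 and 32.99 CPM (log2 fold change 4.80 ± 0.37, adjusted p = 2.31e-08). Il15ra, which presents IL-15 to lymphocytes, was higher at 4.19 ± 0.25 (adjusted p = 1.60e-09), Il4i1, a secreted amino acid oxidase, at 2.91 ± 0.21 (adjusted p = 1.03e-08), and Birc2, a ubiquitin ligase of the NF-κB pathway, at 2.61 ± 0.22 (adjusted p = 4.32e-08). The exception was Nfkb1, the p105 precursor of NF-κB, with 228, 246 and 315 CPM in the LN libraries and 771, 971 and 1155 CPM in the splenic libraries (log2 fold change -1.88 ± 0.22, adjusted p = 3.36e-06): here every splenic library was above every LN library. Among the costimulatory genes Cd83 was higher (1.65 ± 0.28, adjusted p = 1.45e-04), while Cd86, at 119, 100 and 172 CPM in the LN libraries and 90.5, 63.95 and 109 CPM in the splenic libraries, overlapped and did not pass (log2 fold change 0.57 ± 0.24, adjusted p = 0.0812). Cd274, which encodes PD-L1, did not pass either at 360.5, 373 and 292 CPM in the LN libraries and 189, 289 and 247 CPM in the splenic libraries (log2 fold change 0.50 ± 0.20, adjusted p = 0.0568), although its LN values were all above the splenic ones. With the replicate number as a block both passed, Cd86 at adjusted p = 0.0171 and Cd274 at adjusted p = 0.0373.

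**Figure D3:**
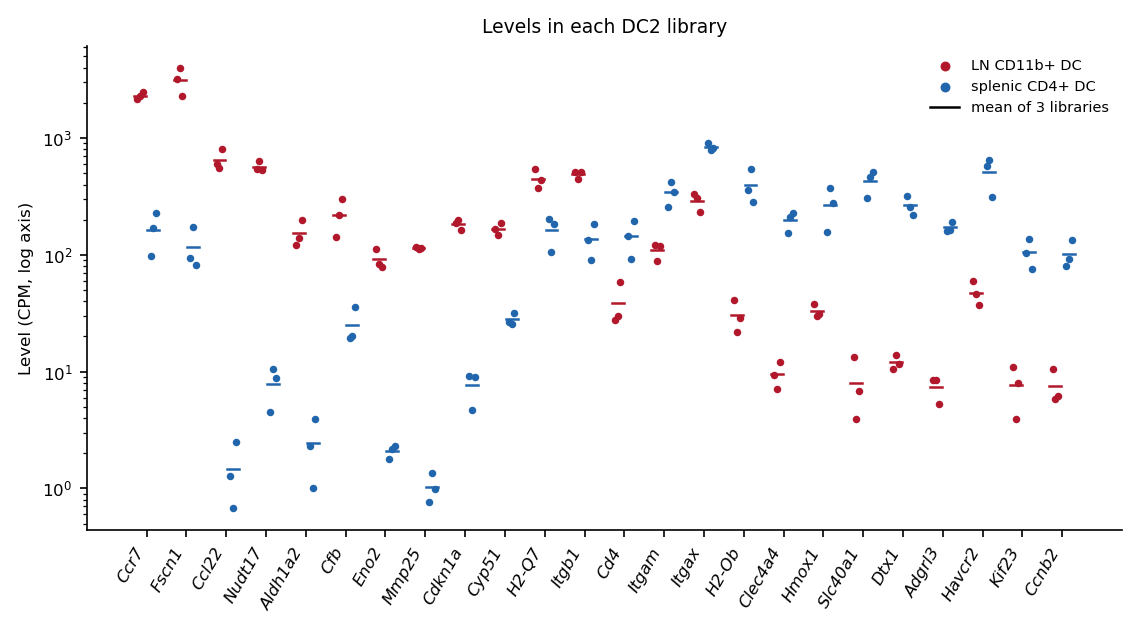
CPM (log axis) of 24 genes in each LN CD11b+ and splenic CD4+ DC library, 1 point per library. Ccr7, at 2154, 2276 and 2497 CPM in LN DC2s and 97.3, 171 and 226 CPM in splenic DC2s, stands for the maturation genes, and Clec4a4, Dtx1, Adgrl3, Kif23 and Ccnb2 are high in the splenic libraries.

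Chemokine genes separated the organs on the side of both ligands and receptors. 20 of 35 listed ligands were expressed enough for the test, and 15 were higher and 2 lower in LN DC2s (1 lower without LN library 2 or LN library 3). Ccl22 (ENSMUSG00000031779, chromosome 8, 94745590 to 94751699), a CCR4 ligand that attracts regulatory and effector T cells, was at 602, 558 and 799 CPM in the LN libraries and 1.28, 0.673 and 2.47 CPM in the splenic libraries (log2 fold change 8.78 ± 0.64, adjusted p = 1.08e-08). The means differed 443-fold, with all 3 splenic libraries near 0. Cxcl2, a neutrophil chemoattractant, was at 28.9, 18.9 and 33.6 CPM in the LN libraries and 1.15, 0.673 and 0.33 CPM in the splenic libraries (log2 fold change 5.15 ± 0.58, adjusted p = 1.55e-06), a difference between low levels. The inflammatory ligands Ccl3 and Ccl4 went the other way. Ccl3 stood at 21.3, 15.4 and 28.8 CPM in the LN libraries and 47.8, 38.4 and 78.01 CPM in the splenic libraries (log2 fold change -1.33 ± 0.36, adjusted p = 0.00729), without overlap. Ccl4, at 32.9, 14.8 and 17.5 CPM in the LN libraries and 66.4, 59.6 and 77.02 CPM in the splenic libraries (log2 fold change -1.62 ± 0.49, adjusted p = 0.015), did not overlap either but lost its call without LN library 2 (adjusted p = 0.0688) or LN library 3 (0.0507). Cxcl9, an interferon-induced CXCR3 ligand, did not pass at 7.05, 6.54 and 11.3 CPM in the LN libraries and 6.14, 1.51 and 5.94 CPM in the splenic libraries (log2 fold change 0.83 ± 0.45, adjusted p = 0.173).

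Of 17 tested chemokine receptors, 8 were higher and 1 lower in LN DC2s (2 lower without LN library 3). Ccr2, the CCL2 receptor of monocytes and some DC2s, was at 156, 116 and 102 CPM in the LN libraries and 19.7, 13.5 and 16.99 CPM in the splenic libraries (log2 fold change 2.90 ± 0.27, adjusted p = 2.09e-07), in the same libraries in which the monocyte markers summed higher; the part of monocytes in it was not tested. Cxcr5, the CXCL13 receptor that leads cells to B cell follicles, was at 26.1, 15.1 and 31.2 CPM in the LN libraries and 2.17, 1.85 and 1.81 CPM in the splenic libraries (log2 fold change 3.61 ± 0.56, adjusted p = 6.14e-05). Ccr3, an eotaxin receptor, was the receptor that was lower, at 1.60, 0.291 and 1.77 CPM in the LN libraries and 19.7, 30.6 and 14.8 CPM in the splenic libraries (log2 fold change -4.16 ± 0.70, adjusted p = 1.25e-04). All LN libraries were below the splenic range for it, close to 0. Ccr6 (0.06 ± 0.35) and Ccr9 (-0.40 ± 0.35), receptors for mucosal chemokines, did not pass. The genes for positioning by oxysterols and sphingosine-1-phosphate were mostly higher in LN DC2s, 9 of 12 tested against 1 lower. Gpr183, which encodes EBI2, was at 232, 230.1 and 239.8 CPM in the LN libraries and 123, 119 and 111 CPM in the splenic libraries (log2 fold change 0.99 ± 0.27, adjusted p = 0.00794). S1pr1, a receptor for egress into lymph and blood, was at 14.5, 12.4 and 20.8 CPM in the LN libraries and 1.41, 1.01 and 1.16 CPM in the splenic libraries (log2 fold change 3.70 ± 0.57, adjusted p = 5.30e-05), with low values in the spleen. T cell markers summed higher in the same LN libraries, and the part of T cells in the S1pr1 and Cxcr5 levels was not tested. Cyp27a1, an enzyme of oxysterol synthesis, was the lower one at 79.6, 77.2 and 50.5 CPM in the LN libraries and 146, 146 and 98.6 CPM in the splenic libraries (log2 fold change -0.91 ± 0.23, adjusted p = 0.00394), and the LN range did not reach the splenic one.

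Costimulatory and coinhibitory molecules split. 13 of 30 tested were higher in LN DC2s, 7 lower, and 10 did not pass. Cd200, the ligand of an inhibitory receptor on myeloid cells, was higher at 169.9, 125 and 122 CPM in the LN libraries and 5.88, 4.38 and 6.93 CPM in the splenic libraries (log2 fold change 4.59 ± 0.26, adjusted p = 1.22e-09), while its receptor Cd200r1 was lower at -1.56 ± 0.37 (adjusted p = 0.00287). Pvr, a ligand of DNAM-1 and TIGIT, was at 78.2, 104 and 125 CPM in the LN libraries and 7.67, 7.57 and 10.9 CPM in the splenic libraries (log2 fold change 3.55 ± 0.27, adjusted p = 1.80e-08). Both had every LN library far above every splenic one. Havcr2, which encodes TIM-3, was the opposite, at 59.3, 45.8 and 37.4 CPM in the LN libraries and 572, 651 and 313 CPM in the splenic libraries (log2 fold change -3.42 ± 0.29, adjusted p = 6.48e-08), and so was the SLAM family gene Cd244a at 12.9, 9.89 and 16.1 CPM in the LN libraries and 180.2, 138 and 158 CPM in the splenic libraries (log2 fold change -3.62 ± 0.34, adjusted p = 1.98e-07). Ly9, another SLAM family gene, was lower as well at -1.34 ± 0.30 (adjusted p = 0.00196). In the TNF superfamily Tnfsf9, the 4-1BB ligand, was higher at 2.17 ± 0.35 (adjusted p = 8.62e-05), and at 2.75 without splenic library 2, and Tnfsf14, known as LIGHT, lower at -2.35 ± 0.41 (adjusted p = 2.04e-04). Among genes by which DCs are known to favor regulatory T cells, 7 of 13 tested were higher and 2 lower. Aldh1a2 (ENSMUSG00000013584, chromosome 9, 71215789 to 71296243), whose product makes retinoic acid, was at 123, 140 and 200.2 CPM in the LN libraries and 2.30, 1.01 and 3.96 CPM in the splenic libraries (log2 fold change 5.98 ± 0.47, adjusted p = 2.39e-08), with at most 3.96 CPM in any splenic library. Itgb8, the integrin chain that activates latent TGF-β, reached 56.6, 48.7 and 71.2 CPM in the LN libraries and at most 0.256 CPM in the splenic ones. Tgfb1 and Itgav, its ligand and its partner chain, were lower in LN DC2s. Tgfb1 was at 62.6, 43.8 and 43.1 CPM in the LN libraries and 131, 178 and 161 CPM in the splenic libraries (log2 fold change -1.65 ± 0.23, adjusted p = 1.49e-05) and Itgav at -1.18 ± 0.23 (adjusted p = 6.67e-04).

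Cytokine genes were higher in LN DC2s in 12 of 23 tested and lower in 3. Il15, which sustains NK and memory CD8 T cells, was at 247, 393 and 283 CPM in the LN libraries and 21.6, 25.8 and 20.3 CPM in the splenic libraries (log2 fold change 3.77 ± 0.25, adjusted p = 4.05e-09), alongside its receptor chain above. Il12b, the p40 subunit shared by IL-12 and IL-23, was at 82.8, 40.4 and 63.1 CPM in the LN libraries and 6.27, 12.6 and 13.2 CPM in the splenic libraries (log2 fold change 2.55 ± 0.44, adjusted p = 2.47e-04), and Csf1, the macrophage growth factor, at 32.4, 32.1 and 34.96 CPM in the LN libraries and 0.895, 0.337 and 1.48 CPM in the splenic libraries (log2 fold change 5.16 ± 0.34, adjusted p = 3.75e-09). For each of these the splenic libraries were all lower than the LN libraries. Ltb, the lymphotoxin chain, was lower at 61.5, 51.2 and 73.7 CPM in the LN libraries and 249, 136 and 219 CPM in the splenic libraries (log2 fold change -1.70 ± 0.38, adjusted p = 0.00177). Il1b did not pass at -0.70 ± 0.29 (adjusted p = 0.0747) but did with the replicate block (adjusted p = 0.0292), and Tnf, at 14.5, 14.1 and 42.7 CPM in the LN libraries and 6.14, 13.5 and 20.4 CPM in the splenic libraries, overlapped (log2 fold change 0.82 ± 0.49, adjusted p = 0.213). Of 38 cytokine receptors 15 were higher and 10 lower. Il2ra, CD25, was at 167, 169.5 and 205 CPM in the LN libraries and 0.128, 0.673 and 0 CPM in the splenic libraries, near 0 in the spleen; its fitted log2 fold change of 9.38 ± 0.48 moved to 10.99 without splenic library 2. T cells can express Il2ra and Il7r, which was at 164, 162 and 235 CPM in the LN libraries and 21.1, 15.2 and 5.61 CPM in the splenic libraries (log2 fold change 3.73 ± 0.47, adjusted p = 6.47e-06), and T cell markers summed higher in the same libraries; their part was not tested. Csf2rb2, a β chain of the IL-3 receptor, was at 2.61 ± 0.21 (adjusted p = 3.10e-08), and Tnfrsf1b, TNF receptor 2, at 2.48 ± 0.22 (adjusted p = 1.20e-07). TNF receptor 1, Tnfrsf1a, was lower at 36.5, 29.9 and 47.4 CPM in the LN libraries and 88.6, 123 and 124 CPM in the splenic libraries (log2 fold change -1.56 ± 0.19, adjusted p = 5.14e-06), so the TNF receptor genes differed in opposite directions. Kit, the stem cell factor receptor, was at 99.4, 80.97 and 127 CPM in the LN libraries and 599.5, 603 and 558 CPM in the splenic libraries (log2 fold change -2.52 ± 0.24, adjusted p = 2.70e-07), Il6ra at -1.83 ± 0.19 (adjusted p = 7.17e-07), Il12rb2 at -2.47 ± 0.28 (adjusted p = 1.44e-06) and Ifngr1, the ligand-binding chain for interferon-γ, at -1.62 ± 0.19 (adjusted p = 2.48e-06); all were lower in LN DC2s. In the SOCS and STAT list 7 of 15 were higher and 2 lower (1 lower without LN library 1 or LN library 2). Socs1 was at 15.6, 15.4 and 21.9 CPM in the LN libraries and 1.28, 1.85 and 1.32 CPM in the splenic libraries (log2 fold change 3.56 ± 0.43, adjusted p = 3.44e-06) and Socs3 at 101, 80.5 and 226 CPM in the LN libraries and 10.4, 18.7 and 26.1 CPM in the splenic libraries (log2 fold change 2.89 ± 0.36, adjusted p = 5.94e-06), above the splenic range in every LN library.

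NF-κB pathway genes were higher in LN DC2s in 18 of 28 and lower in 3. Relb, the subunit of the alternative pathway in DCs, was at 2188, 2779 and 2304 CPM in the LN libraries and 642, 1268 and 863 CPM in the splenic libraries (log2 fold change 1.39 ± 0.22, adjusted p = 7.52e-05). Rela did not pass at 0.62 ± 0.24 (adjusted p = 0.0517) but did with the replicate block (adjusted p = 0.0155), while Nfkb1 was lower as given above. Tnfaip3, which encodes the A20 deubiquitinase that restrains the pathway, was at 929, 1076 and 1574 CPM in the LN libraries and 178, 260.5 and 254 CPM in the splenic libraries (log2 fold change 2.37 ± 0.24, adjusted p = 4.45e-07), and Traf6, an adaptor of Toll-like receptors, at 1.55 ± 0.23 (adjusted p = 3.54e-05). Chuk, the IKKα kinase of the alternative pathway, was lower at 128, 119.9 and 133 CPM in the LN libraries and 213, 346 and 257 CPM in the splenic libraries (log2 fold change -1.099 ± 0.21, adjusted p = 4.12e-04), without overlap. Immediate early and dissociation-associated genes, which respond within minutes to tissue handling, leaned to the LN, with single members in both directions. 9 of 27 (33.3%) were higher, 3 (11.1%) lower and 15 did not pass, with a median log2 fold change of 0.66. The shares over all genes were 19.8% and 15.1%. With the replicate number as a block 14 were higher and 3 lower. Fos stood at 447, 303 and 621 CPM in the LN libraries and 414, 344 and 728 CPM in the splenic libraries (log2 fold change -0.12 ± 0.32, adjusted p = 0.819) and Dusp1 at 1729, 2013 and 2800.0 CPM in the LN libraries and 1273, 2211 and 1500.0 CPM in the splenic libraries (log2 fold change 0.39 ± 0.25, adjusted p = 0.256), overlapping in both. Nr4a1, a nuclear receptor induced by calcium signals, was lower at 217, 109.9 and 323 CPM in the LN libraries and 814, 1173 and 899 CPM in the splenic libraries (log2 fold change -2.15 ± 0.41, adjusted p = 4.68e-04) and its relative Nr4a3 higher at 82.6, 100.5 and 140.5 CPM in the LN libraries and 22.8, 33.7 and 28.5 CPM in the splenic libraries (log2 fold change 1.93 ± 0.35, adjusted p = 3.00e-04). The heat shock genes Hspa1a and Hspa1b were higher at 2.53 ± 0.35 and 2.52 ± 0.31, but are near-identical copies between which reads cannot be divided with certainty.

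Transcription factors of DCs and myeloid cells were higher in LN DC2s in 21 of 47 tested and lower in 8. Etv3, an ETS repressor, was at 1355, 1554 and 2026 CPM in the LN libraries and 131, 226 and 254 CPM in the splenic libraries (log2 fold change 3.02 ± 0.28, adjusted p = 1.65e-07), Prdm1, which encodes Blimp-1, at 31.7, 40.4 and 50 CPM in the LN libraries and 8.19, 9.76 and 9.73 CPM in the splenic libraries (log2 fold change 2.14 ± 0.28, adjusted p = 1.05e-05), and Spib, an ETS factor, at 1.72 ± 0.23 (adjusted p = 1.27e-05). Nr1h3, the oxysterol-sensing receptor LXRα, was at 2.48 ± 0.46 (adjusted p = 3.60e-04). Factors higher in the spleen included Bcl11a, a regulator of DC and B cell development, at 35.3, 31.3 and 35.4 CPM in the LN libraries and 361, 352 and 221 CPM in the splenic libraries (log2 fold change -3.20 ± 0.34, adjusted p = 9.27e-07). Hic1, a zinc finger repressor, was at 4.17, 2.04 and 1.77 CPM in the LN libraries and 30.6, 50.99 and 26.9 CPM in the splenic libraries (log2 fold change -3.70 ± 0.57, adjusted p = 5.25e-05), Ahr, the aryl hydrocarbon receptor, at -1.98 ± 0.23 (adjusted p = 1.83e-06), and Mycl, a MYC family member of DCs, at -2.04 ± 0.34 (adjusted p = 1.35e-04). None of these overlapped between the organs. Spi1, the myeloid master factor PU.1, did not pass at 247, 207 and 196 CPM in the LN libraries and 201, 183 and 266 CPM in the splenic libraries, nor did Zeb2 (0.35 ± 0.32) or Klf4 (0.33 ± 0.34).

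Notch pathway genes were compared by role. Ligands were higher in LN DC2s in all 4 that were tested of 5 listed. Jag1 was at 123, 127 and 126 CPM in the LN libraries and 40.4, 40.2 and 47.01 CPM in the splenic libraries (log2 fold change 1.56 ± 0.34, adjusted p = 0.00148), with the LN libraries nearly equal. Dll4 was at 29.9, 22.1 and 38.9 CPM in the LN libraries and 2.43, 10.6 and 7.92 CPM in the splenic libraries (log2 fold change 2.13 ± 0.56, adjusted p = 0.00693), and Dll1 was found in LN DC2s at 5.88, 13.8 and 15.7 CPM and at 0 in the spleen, at least 77.97-fold higher against a floor of 3 counts over the 3 splenic libraries. 20.6% of the exonic length of Dll1 overlaps another annotated gene. Of 3 tested receptors 1 was lower and none higher. Of 16 tested targets and regulators 3 were higher, 3 lower and 10 did not pass, shares near those over all genes, with a median of -0.08. The higher members were Psen2, a γ-secretase subunit, Adam10, the protease that cleaves Notch receptors, and Dtx3l, a ubiquitin ligase that lost its call without LN library 1 (adjusted p = 0.0537) or splenic library 2 (0.0566). The target Dtx1 (ENSMUSG00000029603, chromosome 5, 120680202 to 120711927), a ubiquitin ligase regulated by Notch, was at 10.5, 13.96 and 11.7 CPM in the LN libraries and 319.6, 258 and 219 CPM in the splenic libraries (log2 fold change -4.46 ± 0.76, adjusted p = 1.39e-04), a 22.04-fold difference of the means with no overlap. Hes1, a canonical Notch target, was lower at 4.60, 2.04 and 4.65 CPM in the LN libraries and 17.4, 14.6 and 24.1 CPM in the splenic libraries (log2 fold change -2.32 ± 0.36, adjusted p = 5.76e-05), also without overlap. Rbpj, the DNA-binding partner of Notch, did not pass at 0.54 ± 0.24 (adjusted p = 0.0881) and was higher with the replicate block (adjusted p = 0.0251). The B cell sum was also higher in the splenic libraries; its part in the Dtx1 level was not tested.

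The MHC class II list was compared with the gate in view, since the LN cells were gated as MHC class II high. 9 of 24 genes were lower in LN DC2s, 4 higher and 11 did not pass, and without LN library 3 only 5 were lower. The chain gene H2-Aa was at 6129, 6296 and 4541 CPM in the LN libraries and 9323, 13330.0 and 8885 CPM in the splenic libraries (log2 fold change -0.89 ± 0.24, adjusted p = 0.0077). H2-Ab1, at 8803, 8623 and 4570.0 CPM in the LN libraries and 16030.0, 20110.0 and 11080.0 CPM in the splenic libraries (log2 fold change -1.102 ± 0.37, adjusted p = 0.028), lost its call without LN library 3 (adjusted p = 0.113), splenic library 1 (0.0543) or splenic library 2 (0.107). The invariant chain gene Cd74 reached 42960.0, 52610.0 and 24150.0 CPM in the LN libraries and 67950.0, 99800.0 and 43510.0 CPM in the splenic libraries and did not pass (log2 fold change -0.82 ± 0.32, adjusted p = 0.0575); with the replicate block it did (adjusted p = 0.0138). Genes of H2-O, the mouse counterpart of HLA-DO, had the largest differences of the list. H2-Ob (ENSMUSG00000041538, chromosome 17, 34238903 to 34245907), its β chain, was at 41.2, 21.9 and 28.8 CPM in the LN libraries and 362, 543 and 282 CPM in the splenic libraries (log2 fold change -3.68 ± 0.51, adjusted p = 1.74e-05), and H2-Oa, its α chain, at 61.99, 52.04 and 74.8 CPM in the LN libraries and 374, 284 and 452 CPM in the splenic libraries (log2 fold change -2.56 ± 0.30, adjusted p = 2.52e-06). H2-O restrains the peptide exchange catalyzed by H2-M, and both of its chains were lower in every LN library. The B cell sum was also higher in the splenic libraries, and its part in the H2-Ob and H2-Oa levels was not tested. March1, the ubiquitin ligase that removes MHC class II from the surface, was lower at 26.4, 20.1 and 16.8 CPM in the LN libraries and 133, 91.5 and 81.5 CPM in the splenic libraries (log2 fold change -2.26 ± 0.40, adjusted p = 1.93e-04), and the transactivator Ciita at -1.61 ± 0.48 (adjusted p = 0.0131), which without LN library 3 did not pass (adjusted p = 0.0527). Lgmn, an endosomal protease, was higher at 255, 299.9 and 101 CPM in the LN libraries and 89.02, 39.4 and 57.7 CPM in the splenic libraries (log2 fold change 1.82 ± 0.34, adjusted p = 3.31e-04).

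MHC class I genes went the other way, with 16 of 20 higher in LN DC2s, none lower and a median of 1.00. Tapbpl, which encodes the peptide editor TAPBPR, was at 293, 299 and 311 CPM in the LN libraries and 54.2, 69.5 and 98.1 CPM in the splenic libraries (log2 fold change 2.03 ± 0.23, adjusted p = 1.44e-06), and tapasin, Tapbp, at 658, 628 and 853 CPM in the LN libraries and 188, 204 and 348 CPM in the splenic libraries (log2 fold change 1.53 ± 0.25, adjusted p = 8.69e-05). Nlrc5, the transactivator of MHC class I genes, was at 215, 214 and 146 CPM in the LN libraries and 50.8, 36.5 and 59.7 CPM in the splenic libraries (log2 fold change 1.97 ± 0.24, adjusted p = 4.69e-06), a counterpart in direction to Ciita. Psme2, a proteasome activator subunit, was at 1.71 ± 0.23 (adjusted p = 1.20e-05). H2-Q7, at 1.45 ± 0.24 (adjusted p = 1.28e-04), belongs to a family of near-identical genes, so its value is uncertain. For the genes named here except H2-M3 (-0.20 ± 0.21), which did not pass, the organs did not overlap.

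Genes of microbial sensing were more often lower than higher in LN DC2s in the surface Toll-like receptor and cytosolic lists, but not in the endosomal list. Of 12 tested genes around the surface Toll-like receptors 3 were higher and 5 lower, and of 14 around the endosomal ones 3 were higher and 3 lower. The endosomal shares, 21.4% in each direction, stood against 19.8% higher and 15.1% lower over all genes. Tlr7, a sensor of single-stranded RNA, was at 11.4, 12.1 and 15.7 CPM in the LN libraries and 68.9, 62.6 and 85.3 CPM in the splenic libraries (log2 fold change -2.48 ± 0.29, adjusted p = 2.97e-06), and Unc93b1, the chaperone of the endosomal receptors, at 828, 988 and 653 CPM in the LN libraries and 1410.0, 2209 and 1828 CPM in the splenic libraries (log2 fold change -1.14 ± 0.23, adjusted p = 6.54e-04). The adaptor Myd88 was lower as well at -1.37 ± 0.24 (adjusted p = 2.09e-04). Tlr11 and Tlr12, sensors of profilin, were higher, at 95.98, 160.2 and 63.3 CPM in the LN libraries and 30.6, 45.8 and 26.1 CPM in the splenic libraries (log2 fold change 1.65 ± 0.33, adjusted p = 7.66e-04) and 15.4, 14.97 and 21.5 CPM in the LN libraries and 2.56, 2.86 and 7.26 CPM in the splenic libraries (log2 fold change 2.04 ± 0.46, adjusted p = 0.00194; 2.66 without splenic library 3). Ly96, the MD-2 coreceptor of TLR4, was higher at 3.28 ± 0.31 (adjusted p = 2.21e-07) and Cd180, a TLR4-related receptor, lower at -2.02 ± 0.27 (adjusted p = 1.34e-05). Cytosolic sensors and inflammasome genes leaned to the spleen, with 11 of 23 lower, 3 higher and a median of -0.58. Nod1, a peptidoglycan sensor, was at 56.6, 44.9 and 49.6 CPM in the LN libraries and 189, 257 and 237 CPM in the splenic libraries (log2 fold change -2.17 ± 0.23, adjusted p = 7.21e-07), Nlrp3 at 13.4, 3.78 and 7.74 CPM in the LN libraries and 35.4, 28.3 and 37.1 CPM in the splenic libraries (log2 fold change -1.99 ± 0.34, adjusted p = 1.39e-04; -2.58 without LN library 1) and Mefv, which encodes pyrin, at -2.36 ± 0.29 (adjusted p = 4.75e-06). The downstream effectors Gsdmd, the pore former of pyroptosis, and Casp4, the caspase that binds lipopolysaccharide in cells, were higher at 1.503 ± 0.24 (adjusted p = 8.59e-05) and 1.51 ± 0.27 (adjusted p = 2.02e-04). Ddx58, which encodes RIG-I, did not pass at -0.63 ± 0.26 (adjusted p = 0.0688) but did with the replicate block (adjusted p = 0.0389), and Tmem173, STING, was at -0.28 ± 0.24.

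Uptake receptors divided by family. Of 24 C-type lectin genes 10 were higher and 9 lower, and in the Dectin-1 and Dectin-2 cluster 6 of 14 were lower and 3 higher. Ly75, the endocytic receptor DEC-205, was at 278, 319 and 263 CPM in the LN libraries and 30.2, 19.7 and 31.01 CPM in the splenic libraries (log2 fold change 3.41 ± 0.27, adjusted p = 2.71e-08). Mgl2, CD301b, a lectin of dermal DC2s, was at 58.5, 37.8 and 25.2 CPM in the LN libraries and 4.48, 10.4 and 0.825 CPM in the splenic libraries (log2 fold change 2.96 ± 0.65, adjusted p = 0.00146; 3.88 without splenic library 2). Cd209a, a DC-SIGN homolog, was lower at 68.1, 38.8 and 30.5 CPM in the LN libraries and 261, 145 and 148 CPM in the splenic libraries (log2 fold change -2.002 ± 0.39, adjusted p = 5.46e-04), as were Clec4a1 (-1.94 ± 0.36, adjusted p = 3.77e-04) and Clec4a2 (-1.28 ± 0.31, adjusted p = 0.00316), neighbors of Clec4a4 in its gene cluster. These genes are related copies, so their reads may be shared in part. Receptors of the Siglec, SIRP and CD300 families were the list of surface receptors most often lower, in 14 of 23 with 4 higher and a median of -1.38. Cd300lf, an inhibitory lipid receptor, was at 29.3, 25.4 and 16.8 CPM in the LN libraries and 335, 390.1 and 248 CPM in the splenic libraries (log2 fold change -3.75 ± 0.49, adjusted p = 9.30e-06). Siglece, an inhibitory Siglec of myeloid cells, was at 4.60, 6.54 and 8.41 CPM in the LN libraries and 53.5, 50.99 and 45.7 CPM in the splenic libraries (log2 fold change -2.97 ± 0.40, adjusted p = 1.32e-05), and Cd22, an inhibitory Siglec of B cells, at 20.1, 16.3 and 7.52 CPM in the LN libraries and 184, 256 and 193 CPM in the splenic libraries (log2 fold change -3.82 ± 0.86, adjusted p = 0.00178). In each the splenic libraries lay far above the LN libraries. Cd22 is itself in the B cell list and its only member called lower; Ms4a1 (-1.07 ± 0.53), another B cell marker, did not pass. Siglec1, a marker of LN and marginal zone macrophages, was higher in LN DC2s at 11.9, 11.2 and 9.73 CPM in the LN libraries and 0.512, 0.673 and 0.33 CPM in the splenic libraries (log2 fold change 4.40 ± 0.49, adjusted p = 1.61e-06). It is 1 of the 9 macrophage markers called higher in LN DC2s, and the part of macrophages in it was not tested.

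Complement genes were higher in LN DC2s in 10 of 19 tested and lower in 4. Cfb, factor B of the alternative pathway, was at 143, 218 and 300.5 CPM in the LN libraries and 19.6, 20.03 and 35.96 CPM in the splenic libraries (log2 fold change 3.13 ± 0.29, adjusted p = 1.81e-07), but 79.5% of its exonic length overlaps a read-through gene. C3, the central component of the cascade, was at 189.7, 176 and 184 CPM in the LN libraries and 33.6, 31.1 and 28.7 CPM in the splenic libraries (log2 fold change 2.56 ± 0.37, adjusted p = 2.79e-05), and C1qb at 1.55 ± 0.30 (adjusted p = 4.89e-04). Cfp, properdin, which stabilizes the alternative convertase, was the opposite at 283, 218 and 222 CPM in the LN libraries and 730.3, 919 and 979 CPM in the splenic libraries (log2 fold change -1.86 ± 0.30, adjusted p = 9.39e-05). C3, Cfb and Cfp each separated the organs without overlap. Over Fc receptors and complement together 13 of 28 were higher and 7 lower, and 8 were higher without LN library 1 or splenic library 2. Among the 9 Fc receptors 3 were higher and 3 lower, with Fcrl1 at 16.1, 8.58 and 12.6 CPM in the LN libraries and 79.9, 78.6 and 93.3 CPM in the splenic libraries (log2 fold change -2.75 ± 0.56, adjusted p = 8.49e-04) and Fcer1g, the shared signaling chain, at -0.25 ± 0.22. The B cell sum was higher in the splenic libraries, and its part in the Fcrl1 level was not tested. Genes for the uptake of dead cells were higher in 11 of 18 and lower in 4. Mfge8, a bridge to phosphatidylserine, was at 351, 516 and 207 CPM in the LN libraries and 14.4, 24.6 and 12.5 CPM in the splenic libraries (log2 fold change 4.38 ± 0.32, adjusted p = 1.03e-08), Msr1, a scavenger receptor, at 76.3, 50.6 and 53.5 CPM in the LN libraries and 7.42, 7.74 and 10.1 CPM in the splenic libraries (log2 fold change 2.84 ± 0.35, adjusted p = 3.94e-06), and Timd4, TIM-4, at 1.80 ± 0.33 (adjusted p = 2.88e-04). Mertk and Lrp1, receptors of the same process, were at 0.37 ± 0.36 and 0.22 ± 0.23 and did not pass. Of 15 macrophage markers 9 were higher in LN DC2s and 3 lower, while the macrophage sums overlapped. The part of macrophages in the C1qb, Msr1 and Timd4 levels was not tested.

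Adhesion genes were among the most divided. Of 19 tested integrin chains 8 were higher and 8 lower. The 5 tested chains of the β2 integrins of leukocytes were lower. Itgb2 was at 241, 185 and 219.9 CPM in the LN libraries and 712, 944 and 874 CPM in the splenic libraries (log2 fold change -1.97 ± 0.22, adjusted p = 1.19e-06), Itgal, the LFA-1 α chain, at 36.9, 49.1 and 61.95 CPM in the LN libraries and 157, 219 and 132 CPM in the splenic libraries (log2 fold change -1.79 ± 0.26, adjusted p = 3.05e-05), and Itgad at -4.01 ± 0.42 (adjusted p = 8.06e-07). With Itgam and Itgax above, all 5 genes of this group had every LN library below every splenic one. Some matrix-binding chains were higher. Itgb1, the β1 chain, was at 515, 444 and 516 CPM in the LN libraries and 135, 90.5 and 185 CPM in the splenic libraries (log2 fold change 1.85 ± 0.26, adjusted p = 2.03e-05), Itga5, the fibronectin receptor chain, at 54.8, 75.9 and 55.3 CPM in the LN libraries and 7.42, 6.56 and 10.7 CPM in the splenic libraries (log2 fold change 2.91 ± 0.27, adjusted p = 1.35e-07), and Itga6, a laminin receptor chain, at 2.75 ± 0.40 (adjusted p = 2.72e-05). Itga4, another partner of β1, did not pass at -0.25 ± 0.17 (adjusted p = 0.295). In the cadherin list 4 of 13 were higher and 3 lower, with α-catenin, Ctnna1, at 383, 411 and 399.8 CPM in the LN libraries and 127, 148 and 155 CPM in the splenic libraries (log2 fold change 1.47 ± 0.16, adjusted p = 1.53e-06) and δ2-catenin, Ctnnd2, at 3.85, 3.63 and 1.55 CPM in the LN libraries and 106, 99.6 and 81.2 CPM in the splenic libraries (log2 fold change -4.92 ± 0.44, adjusted p = 1.27e-07). Among latrophilins and their partners, 5 of 15 were expressed enough to be tested, with 1 higher and 1 lower (2 lower without LN library 3). These shares, 20% in each direction, lay near the 19.8% and 15.1% over all genes. The adhesion receptor Adgrl3 was at 8.55, 8.43 and 5.31 CPM in the LN libraries and 159, 164 and 192 CPM in the splenic libraries (log2 fold change -4.50 ± 0.28, adjusted p = 2.47e-09) and its ligand Flrt3 at 108, 116 and 129.9 CPM in the LN libraries and 0, 1.68 and 0 CPM in the splenic libraries (log2 fold change 7.80 ± 0.58, adjusted p = 1.35e-07; 7.11 without splenic library 1 and 12.77 without splenic library 2), so receptor and ligand were high in opposite organs. 9 of 17 semaphorin and plexin genes were higher and 2 lower (1 lower without splenic library 2). Sema4a, a costimulatory semaphorin, was at 352, 375 and 305 CPM in the LN libraries and 12.4, 18.9 and 27.5 CPM in the splenic libraries (log2 fold change 4.14 ± 0.30, adjusted p = 1.04e-08), and Sema4d, CD100, was lower at 117, 107 and 106 CPM in the LN libraries and 313, 386 and 435 CPM in the splenic libraries (log2 fold change -1.78 ± 0.21, adjusted p = 3.70e-06). Nrp2, a receptor that DCs modify with polysialic acid to sense CCL21, was at 194, 259 and 177 CPM in the LN libraries and 8.19, 5.39 and 2.97 CPM in the splenic libraries (log2 fold change 5.22 ± 0.32, adjusted p = 1.97e-09).

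Of 44 tested genes of the actin cytoskeleton 11 were higher, 10 lower and 23 did not pass, shares near those over all genes. Next to Fscn1, the intermediate filament gene Vim was higher at 1127, 1012 and 1121 CPM in the LN libraries and 190.1, 102 and 193 CPM in the splenic libraries (log2 fold change 2.75 ± 0.23, adjusted p = 5.08e-08) and Myo1g, a membrane-tethering myosin, at 1713, 2356 and 2272 CPM in the LN libraries and 495, 712 and 695 CPM in the splenic libraries (log2 fold change 1.74 ± 0.22, adjusted p = 6.47e-06), while its relative Myo1f was lower at 327, 281 and 238 CPM in the LN libraries and 1100.0, 1592 and 1194 CPM in the splenic libraries (log2 fold change -2.20 ± 0.28, adjusted p = 7.09e-06). Lcp1, L-plastin, was lower at -1.47 ± 0.24 (adjusted p = 7.86e-05), as was Was, the activator of branched actin in blood cells, at -1.93 ± 0.26 (adjusted p = 1.09e-05). Actb itself did not pass (0.50 ± 0.28). Matrix-cleaving proteases were higher in 12 of 19 and lower in 3. Mmp25, a membrane-anchored protease, was at 116, 112 and 114 CPM in the LN libraries and 0.767, 1.35 and 0.99 CPM in the splenic libraries (log2 fold change 6.79 ± 0.39, adjusted p = 1.23e-09), with nearly equal LN libraries. Mmp14, a collagenase at the cell surface, was at 78.5, 56.3 and 55.98 CPM in the LN libraries and 11.8, 15.7 and 18.6 CPM in the splenic libraries (log2 fold change 2.06 ± 0.29, adjusted p = 2.10e-05), and Mmp12, macrophage elastase, was lower at 54.3, 28.4 and 25.2 CPM in the LN libraries and 241, 396 and 295 CPM in the splenic libraries (log2 fold change -3.10 ± 0.58, adjusted p = 3.74e-04). Among the intracellular protease inhibitors, 8 of 14 serpins and cystatins were higher and 4 lower. The 4 are all the lower members of the whole protease list, where 2 were lower without LN library 1 or 2. Serpinb6b was at 276, 354 and 373 CPM in the LN libraries and 6.52, 10.8 and 16.8 CPM in the splenic libraries (log2 fold change 4.89 ± 0.37, adjusted p = 4.32e-08) and Serpinb1a, an inhibitor of neutrophil proteases, at 3.76 ± 0.28 (adjusted p = 1.67e-08). Serpinb2 was the exception at 0.214, 0.872 and 0.221 CPM in the LN libraries and 10.9, 14.98 and 17.1 CPM in the splenic libraries (log2 fold change -4.98 ± 0.50, adjusted p = 4.03e-07; -5.94 without LN library 2). The cathepsins and other endosomal proteases were higher in 5 of 17, lower in none, and Ctss, the protease that trims the invariant chain, was at 0.21 ± 0.21, which did not pass.

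Proliferation genes were the most uniform group on the splenic side. Of 81 tested cell cycle genes 59 were lower in LN DC2s, 4 higher and 18 did not pass. All 31 tested genes of mitosis, of 32 listed, were lower, with a median log2 fold change of -2.50, and 21 of 31 replication genes were lower, with a median of -1.06. Kif23, a kinesin of the central spindle, was at 11.01, 3.92 and 7.96 CPM in the LN libraries and 103, 138 and 75.4 CPM in the splenic libraries (log2 fold change -3.77 ± 0.43, adjusted p = 1.98e-06). Ccnb2, cyclin B2, was at 10.5, 5.82 and 6.20 CPM in the LN libraries and 80.5, 91.5 and 133 CPM in the splenic libraries (log2 fold change -3.73 ± 0.42, adjusted p = 1.55e-06), and Ube2c, a ubiquitin conjugase of the anaphase complex, at 5.45, 4.65 and 6.64 CPM in the LN libraries and 31.5, 39.7 and 81.8 CPM in the splenic libraries (log2 fold change -3.20 ± 0.46, adjusted p = 2.52e-05). The splenic libraries were above all LN libraries for each, and 22.8% of the exonic length of Ube2c overlaps another gene. The replication genes Rfc5 (-0.33 ± 0.25) and Uhrf1 (-0.35 ± 0.23) did not pass. On the other side stood inhibitors of cyclin-dependent kinases. Cdkn1a, p21, was at 188, 200 and 165 CPM in the LN libraries and 9.21, 4.71 and 9.07 CPM in the splenic libraries (log2 fold change 4.58 ± 0.33, adjusted p = 8.92e-09), and Cdkn2b, p15, reached 65.9, 77.05 and 73.2 CPM in the LN libraries against 2.30, 2.02 and 5.61 CPM. Cdk6, a G1 kinase, was also higher at 1.38 ± 0.26 (adjusted p = 3.92e-04), and Ccnd3, cyclin D3, did not pass at -0.55 ± 0.28 (adjusted p = 0.147) but was lower with the replicate block (adjusted p = 0.0465).

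The promoters of the 3 mitosis genes named above are shown because all tested members of the group were lower together. Each run is the 250 bases before the RefSeq start on the GRCm38.p6 assembly, read 5′ to 3′ on the strand of the gene, with capitals marking matches on either strand to the CCAAT box, the letters CCAAT bound by NF-Y, or to the CHR element, the letters TTTGAA bound by the DREAM complex. Kif23 lies on the reverse strand at chr9:61946800-61947049, Ccnb2 on the reverse strand at chr9:70421555-70421804, and Ube2c on the forward strand at chr2:164769679-164769928.
Kif23: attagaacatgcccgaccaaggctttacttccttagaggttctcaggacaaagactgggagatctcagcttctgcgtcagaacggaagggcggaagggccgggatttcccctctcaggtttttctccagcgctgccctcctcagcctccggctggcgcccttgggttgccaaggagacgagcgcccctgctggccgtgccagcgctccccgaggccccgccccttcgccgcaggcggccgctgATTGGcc
Ccnb2: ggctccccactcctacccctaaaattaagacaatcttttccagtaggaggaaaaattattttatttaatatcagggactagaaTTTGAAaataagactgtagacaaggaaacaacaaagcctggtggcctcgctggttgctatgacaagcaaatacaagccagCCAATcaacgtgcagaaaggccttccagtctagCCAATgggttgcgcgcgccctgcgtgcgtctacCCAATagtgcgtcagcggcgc
Ube2c: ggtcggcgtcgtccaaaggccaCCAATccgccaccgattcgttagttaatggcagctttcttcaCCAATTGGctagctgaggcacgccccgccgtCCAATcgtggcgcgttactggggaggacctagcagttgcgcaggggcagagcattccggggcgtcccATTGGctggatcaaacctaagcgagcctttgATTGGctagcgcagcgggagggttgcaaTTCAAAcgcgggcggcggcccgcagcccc
Kif23 held 1 CCAAT box and no CHR element, Ccnb2 3 and 1, and Ube2c 6 and 1, with some of the boxes of Ube2c overlapping on opposite strands. Of the 31 mitosis genes 27 had a promoter in the RefSeq table, and 20 (74.1%) held a CCAAT box and 10 (37%) a CHR element. Over all 32851 promoters of the table these shares were 33.8% and 16%, and over the 9488 tested genes with a promoter 40.6% and 13%. A gene counted as holding a motif where any of its listed promoters did, while the 32851 promoters were counted singly, a different unit. Of 26 replication genes with a promoter, 15 (57.7%) held a CCAAT box and 3 (11.5%) a CHR element. A match describes the letters in this window only.

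Cholesterol synthesis was higher in LN DC2s in 15 of its 21 genes and lower in none, with a median of 1.30. Idi1, an isomerase of the isoprenoid steps, was at 31.5, 37.5 and 36.3 CPM in the LN libraries and 1.92, 2.02 and 6.60 CPM in the splenic libraries (log2 fold change 3.34 ± 0.39, adjusted p = 2.32e-06). Cyp51 (ENSMUSG00000001467, chromosome 5, 4081145 to 4104746), the lanosterol demethylase, was at 166, 149 and 186 CPM in the LN libraries and 26.6, 25.8 and 31.7 CPM in the splenic libraries (log2 fold change 2.57 ± 0.24, adjusted p = 2.13e-07). In both, all LN libraries were well above all splenic libraries. The fold of Idi1 was larger without splenic library 3 (log2 fold change 4.15). Of 9 genes of efflux and cholesterol esters 6 were higher and 3 lower, with Nr1h3 as given above among the higher and Cyp27a1 among the lower. Of 12 genes of uptake and regulation 4 were higher and 3 lower. Among these, Npc2, a lysosomal cholesterol carrier, was higher at 382, 324 and 432 CPM in the LN libraries and 57.8, 25.2 and 92.2 CPM in the splenic libraries (log2 fold change 2.70 ± 0.36, adjusted p = 1.27e-05). Npc1, which takes cholesterol from NPC2 in the lysosome, was lower at 54.9, 47.8 and 66.8 CPM in the LN libraries and 114, 124 and 124 CPM in the splenic libraries (log2 fold change -1.09 ± 0.26, adjusted p = 0.00266). The regulator Srebf2 (0.33 ± 0.23) did not pass, and its escort Scap was lower at -0.83 ± 0.20 (adjusted p = 0.00265). The promoters of 3 synthesis genes that were higher are given in the same form as above, with capitals for the CCAAT box and for SRE-like letters, TCACNCCAC, of which these 3 held none. Idi1 lies on the forward strand at chr13:8885356-8885605, Cyp51 on the reverse strand at chr5:4104698-4104947, and Mvd, a decarboxylase of the mevalonate steps (log2 fold change 1.89 ± 0.24, adjusted p = 6.72e-06), on the reverse strand at chr8:122443423-122443672.
Idi1: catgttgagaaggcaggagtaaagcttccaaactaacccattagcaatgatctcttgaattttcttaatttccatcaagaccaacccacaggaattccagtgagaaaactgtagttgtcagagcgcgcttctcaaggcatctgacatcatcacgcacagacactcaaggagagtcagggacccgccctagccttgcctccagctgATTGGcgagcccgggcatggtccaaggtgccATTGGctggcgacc
Cyp51: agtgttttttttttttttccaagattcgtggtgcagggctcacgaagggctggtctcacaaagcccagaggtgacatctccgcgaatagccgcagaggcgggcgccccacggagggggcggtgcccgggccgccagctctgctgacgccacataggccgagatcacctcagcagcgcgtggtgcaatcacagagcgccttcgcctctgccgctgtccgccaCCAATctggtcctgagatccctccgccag
Mvd: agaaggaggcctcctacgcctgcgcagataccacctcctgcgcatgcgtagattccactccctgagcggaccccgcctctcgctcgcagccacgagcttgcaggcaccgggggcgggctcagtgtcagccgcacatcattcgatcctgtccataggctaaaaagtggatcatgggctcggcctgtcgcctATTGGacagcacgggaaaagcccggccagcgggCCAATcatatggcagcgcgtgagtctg
Of the 21 synthesis genes 16 had a promoter in the table, of which 15 (93.8%) held a CCAAT box and 1 (6.25%) the SRE-like letters, against 40.6% and 1.2% of the tested genes with a promoter.

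Other metabolic genes changed singly. In the lipid list 9 of 31 were higher, 2 lower (1 without LN library 2) and 20 did not pass, with Fabp5, a fatty acid carrier, at 436, 401 and 289.6 CPM in the LN libraries and 23.4, 27.1 and 20.9 CPM in the splenic libraries (log2 fold change 3.98 ± 0.26, adjusted p = 3.84e-09) and Plin2, a lipid droplet coat protein, at 1.92 ± 0.25 (adjusted p = 8.07e-06). In glycolysis 9 of 35 (25.7%) were higher and 7 (20%) lower, against 19.8% and 15.1% over all genes. The 7 became 3 to 4 when LN library 2 or 3 or splenic library 1 or 2 was left out. Eno2, the neuronal enolase, was at 113, 83.2 and 79.4 CPM in the LN libraries and 1.79, 2.19 and 2.31 CPM in the splenic libraries (log2 fold change 5.46 ± 0.27, adjusted p = 1.22e-09) and Pfkfb3, which makes the activator of phosphofructokinase, at 1153, 1210.0 and 1591 CPM in the LN libraries and 161, 175 and 178 CPM in the splenic libraries (log2 fold change 2.94 ± 0.22, adjusted p = 1.65e-08). The glucose transporter Slc2a3 was lower at 6.63, 7.56 and 18.4 CPM in the LN libraries and 88.9, 131 and 151 CPM in the splenic libraries (log2 fold change -3.55 ± 0.52, adjusted p = 3.13e-05), and hexokinase 2, Hk2, at 38.4, 36.3 and 33.9 CPM in the LN libraries and 122, 229 and 125 CPM in the splenic libraries (log2 fold change -2.13 ± 0.31, adjusted p = 2.82e-05), so the list held large differences in both directions. Eicosanoid genes were higher in 5 and lower in 6 of 20. Alox5ap, the 5-lipoxygenase activator, was lower at 85.6, 56.1 and 84.5 CPM in the LN libraries and 340.1, 476 and 434 CPM in the splenic libraries (log2 fold change -2.46 ± 0.28, adjusted p = 2.20e-06) and Ltc4s, the next enzyme toward cysteinyl leukotrienes, higher at 50.1, 77.5 and 102 CPM in the LN libraries and 0.384, 1.51 and 1.32 CPM in the splenic libraries (log2 fold change 6.19 ± 0.54, adjusted p = 7.52e-08), although 26.1% of its exonic length overlaps another gene. The prostaglandin E2 receptors were opposite, with Ptger4 higher at 2.44 ± 0.26 (adjusted p = 7.65e-07) and Ptger3 lower at -4.56 ± 0.44 (adjusted p = 2.50e-07).

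Redox genes held 10 higher and 4 lower of 29. Slc7a11, the cystine importer, was at 112, 170.2 and 164 CPM in the LN libraries and 14.1, 13.5 and 15.2 CPM in the splenic libraries (log2 fold change 3.38 ± 0.24, adjusted p = 7.99e-09), Srxn1, sulfiredoxin, at 3.61 ± 0.34 (adjusted p = 2.13e-07), and Gclc, the first enzyme of glutathione synthesis, at 2.02 ± 0.25 (adjusted p = 5.71e-06). Hmox1, which degrades heme, was lower at 37.6, 29.9 and 30.98 CPM in the LN libraries and 156, 376 and 276 CPM in the splenic libraries (log2 fold change -3.03 ± 0.33, adjusted p = 1.14e-06). Slc40a1, the iron exporter ferroportin, is not in the redox list. It was lower at 13.4, 3.92 and 6.86 CPM in the LN libraries and 306, 461 and 512 CPM in the splenic libraries (log2 fold change -5.69 ± 0.44, adjusted p = 2.02e-08). Without LN library 1 its log2 fold change was -6.34. Hmox1 and Slc40a1 are genes of iron recycling in the spleen, where erythroid markers summed to 36.9 to 237 CPM against 11.7 to 58.0 CPM in the LN. Macrophage markers summed to 1554 to 1981 CPM in the spleen and 1003 to 1563 CPM in the LN, with 9 of 15 members higher in LN DC2s and 3 lower. The part of erythroid cells and of macrophages in the Hmox1 and Slc40a1 levels was not tested. In the erythroid list 2 genes were lower in LN DC2s, and neither was when LN library 1 or 3 or splenic library 1 was left out. Lysosome genes were higher in 7 of 29 and lower in 5 (3 without LN library 2 or splenic library 3), with Lamp1 at 1425, 1396 and 955 CPM in the LN libraries and 222, 210.5 and 218 CPM in the splenic libraries (log2 fold change 2.54 ± 0.20, adjusted p = 2.37e-08) and Atp6v0a1, a proton pump subunit, at 191, 216 and 127 CPM in the LN libraries and 21.2, 20.9 and 18.5 CPM in the splenic libraries (log2 fold change 3.14 ± 0.27, adjusted p = 7.37e-08), and Tfeb, the regulator of lysosome genes, lower at 90.8, 101 and 49.8 CPM in the LN libraries and 167, 264 and 128 CPM in the splenic libraries (log2 fold change -1.21 ± 0.26, adjusted p = 0.00124). The lysosome shares, 24.1% higher and 17.2% lower, lay near the 19.8% and 15.1% over all genes. Purinergic genes were higher in 3 and lower in 3 of 17 (higher in 5 with the replicate block or without splenic library 2 or 3, lower in 1 without LN library 2). Their shares, 17.6% in each direction, were near those over all genes too. Adora2a, an adenosine receptor that raises cyclic AMP, was at 242, 355 and 302 CPM in the LN libraries and 23.1, 53.7 and 38.4 CPM in the splenic libraries (log2 fold change 2.97 ± 0.27, adjusted p = 1.33e-07), and Entpd1, CD39, which degrades extracellular ATP, was lower at 18.8, 12.4 and 17.3 CPM in the LN libraries and 53.9, 50.7 and 68.8 CPM in the splenic libraries (log2 fold change -1.84 ± 0.25, adjusted p = 1.32e-05).

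Genes of the BCL2 family, which holds antiapoptotic and proapoptotic members, were higher in 9 of 14 and lower in 1 (5 higher in a fit of the 6 libraries alone). Bcl2l1, the antiapoptotic BCL-XL, was at 60.4, 52.2 and 92.3 CPM in the LN libraries and 12.3, 3.37 and 8.91 CPM in the splenic libraries (log2 fold change 3.04 ± 0.39, adjusted p = 6.87e-06). The proapoptotic Bcl2l11, BIM, was higher as well at 73.96, 52.9 and 53.5 CPM in the LN libraries and 35.9, 27.1 and 18.8 CPM in the splenic libraries (log2 fold change 1.14 ± 0.24, adjusted p = 8.92e-04), and Bid was lower at -1.05 ± 0.25 (adjusted p = 0.00244). Mcl1 did not pass at 0.30 ± 0.23 (adjusted p = 0.341). In the unfolded protein response 9 of 30 were higher and 4 lower (1 lower without LN library 1, and 2 without LN library 2 or splenic library 2; 2 higher and 1 lower in a fit of the 6 libraries alone), with Ppp1r15a, GADD34, at 628, 652 and 742 CPM in the LN libraries and 107, 97.6 and 165 CPM in the splenic libraries (log2 fold change 2.45 ± 0.21, adjusted p = 5.51e-08), while Atf6, a membrane-bound stress sensor, was lower at -1.196 ± 0.17 (adjusted p = 2.16e-05) and Hspa5, BiP, was at -0.23 ± 0.19. Of 43 interferon-stimulated genes 10 (23.3%) were higher, 6 (14%) lower (3 without LN library 1 or 2) and 27 did not pass. These shares lay near those over all genes, 19.8% and 15.1%. Mx1 was at 328, 272 and 238 CPM in the LN libraries and 39.4, 16.5 and 31.5 CPM in the splenic libraries (log2 fold change 3.26 ± 0.27, adjusted p = 4.32e-08) and Usp18 at 1.25 ± 0.20 (adjusted p = 6.58e-05), whereas Isg20 (-1.59 ± 0.29, adjusted p = 3.26e-04) and Ifitm1 (-2.35 ± 0.46, adjusted p = 5.46e-04) were lower and Irf7 was at 0.04 ± 0.23. The respiratory chain was close to level, with 3 of 74 higher, 2 lower and a median of -0.03. With the replicate block 8 were higher and 4 lower, and leaving out 1 library gave between 0 and 6 higher and between 1 and 5 lower, depending on the library. Of 60 ribosomal protein genes none was higher and 7 were lower, with 1 higher and 14 lower with the replicate block, 11 lower without LN library 3, and 1 higher and 15 lower without splenic library 3.

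Some of the largest differences lay outside these lists. Plppr4, a phospholipid phosphatase-related membrane protein of neurons, was at 22.7, 28.2 and 42.5 CPM in the LN libraries and 0 CPM in all 3 splenic libraries, at least 206-fold higher in LN DC2s against the floor of 3 counts. Retnla, a secreted RELM protein of alternatively activated macrophages, was at 14.8, 9.74 and 30.8 CPM in the LN libraries and 0 CPM in all 3 splenic libraries, at least 122-fold higher, and its LN libraries varied widely. Clu, clusterin, a secreted chaperone, was at 346, 365 and 439 CPM in the LN libraries and 0.512, 0.337 and 0.165 CPM in the splenic libraries (log2 fold change 10.02 ± 0.45, adjusted p = 1.41e-10). On the splenic side, Kcnj16, a potassium channel, was at 0.321, 0 and 0.443 CPM in the LN libraries and 12.02, 13.5 and 18.97 CPM in the splenic libraries (log2 fold change -5.84 ± 0.90, adjusted p = 5.19e-05). All of them separated the organs completely, as the rule by which they were named required.

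The DC1s of the same organs served to ask whether a gene's difference between LN and spleen was particular to DC2s. LN CD103+ DCs were set against splenic CD8+ DCs, and the difference between the organ effects was tested in the same model, with no library in both pairs. The organ effects of DC2s and DC1s differed in 1598 genes (12.2%), being more positive in DC2s in 847 and more negative in 751. Of the 4585 genes called in DC2s, 891 (19.4%) were among them, and 151 genes were called in both pairs in opposite directions.

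Leading maturation genes were higher in the LN in both subtypes. Ccr7 had an organ effect of 5.47 (adjusted p = 6.77e-10) in DC1s and Fscn1 of 6.75 (adjusted p = 6.77e-10). The organ effect differed between the subtypes, in size or direction, in 25 of the 41 maturation genes, of which 21 were called in DC2s. For the mitosis genes, 2 of 31 differed, and Ccnb2 was lower in LN DC1s as well, at -3.79 (adjusted p = 8.25e-07). None of the 21 cholesterol synthesis genes differed between the subtypes at the threshold, with 0.52 ± 0.33, adjusted p = 0.337 for Cyp51. The MHC class II chains did differ, in all 4 tested. H2-Ab1 had a mean ± SD (n = 3 libraries, as for the other DC1 values below) of 1770.0 ± 1250.0 CPM in the CD103+ DCs of the LN and 19160.0 ± 1918 CPM in the CD8+ DCs of the spleen, and its organ effect in DC2s minus that in DC1s was 2.33 ± 0.53, adjusted p = 0.00654. Interferon-stimulated genes also differed between the subtypes in 26 of 43. Ifit1, an antiviral RNA-binding protein, was at 33.5, 54.1 and 53.99 CPM in the LN libraries and 33, 32.8 and 66.6 CPM in the splenic libraries in DC2s (log2 fold change 0.09 ± 0.33, adjusted p = 0.862) and at 67.8 ± 16.2 CPM in the CD103+ DCs of the LN and 2.51 ± 1.36 CPM in the CD8+ DCs of the spleen, with a difference of -4.65 ± 0.52, adjusted p = 1.39e-05: its level was higher in the LN in DC1s and overlapped in DC2s.

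Among single genes with opposite organ effects, Rab7b, a late endosomal GTPase, was at 28.8, 30.5 and 38.1 CPM in the LN libraries and 3.84, 5.72 and 2.31 CPM in the splenic libraries in DC2s (log2 fold change 3.03 ± 0.44, adjusted p = 2.74e-05) and at 53.4 ± 41.5 CPM in the CD103+ DCs of the LN and 1028 ± 147 CPM in the CD8+ DCs of the spleen, and the difference between the effects was 7.29 ± 0.59, adjusted p = 4.22e-07. Ccr1, an inflammatory chemokine receptor, was at 21.9, 9.89 and 5.53 CPM in the LN libraries and 0.512, 0 and 0.495 CPM in the splenic libraries in DC2s and at 0.439 ± 0.296 CPM in the CD103+ DCs of the LN and 9.17 ± 1.60 CPM in the CD8+ DCs of the spleen, with a difference of 9.51 ± 0.95, adjusted p = 3.82e-06. Cd101, an inhibitory receptor of the immunoglobulin family, was at 8.76, 9.16 and 8.85 CPM in the LN libraries and 44.8, 60.4 and 33.8 CPM in the splenic libraries in DC2s (log2 fold change -2.37 ± 0.37, adjusted p = 5.35e-05) and at 6.05 ± 2.76 CPM in the CD103+ DCs of the LN and 0.163 ± 0.0669 CPM in the CD8+ DCs of the spleen, with a difference of -7.45 ± 0.70, adjusted p = 1.77e-06. Rab7b and Ccr1 were thus higher in LN DC2s and in splenic DC1s, and Cd101 in splenic DC2s and LN DC1s. Irf8, the DC1 factor, was at 615 ± 132 CPM in the CD103+ DCs of the LN and 2488 ± 581 CPM in the CD8+ DCs of the spleen, so that its higher level in LN DC2s came with an effect of -2.02 (adjusted p = 5.07e-06) in DC1s and a difference of 4.23 ± 0.38, adjusted p = 1.15e-06. Ccr2 was at 10.03 ± 4.19 CPM in the CD103+ DCs of the LN and 57.8 ± 7.79 CPM in the CD8+ DCs of the spleen, with a difference of 5.43 ± 0.39, adjusted p = 1.10e-07. Esam was at 53.4 ± 12.7 CPM in the CD103+ DCs of the LN and 8.02 ± 1.23 CPM in the CD8+ DCs of the spleen, with a difference of -4.02 ± 0.40, adjusted p = 4.10e-06.

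**Figure D4:**
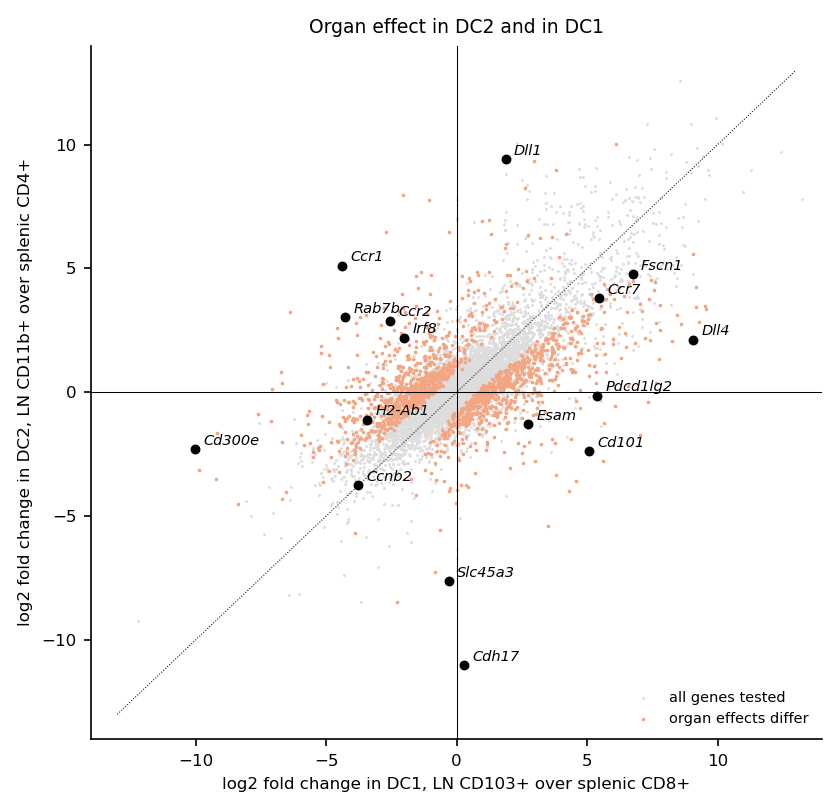
Organ effect (log2 fold change, LN minus spleen) in DC1s on the x axis against that in DC2s on the y axis, 1 point per gene tested, with the 1598 genes whose effects differed in orange. Ccr7 and Fscn1 lie in the upper right, Ccnb2 in the lower left, and Rab7b and Ccr1 in the upper left.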

How the data were processed

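PolyA RNA of sorted cells, pooled from 5 mice for each library, was amplified with SMARTer Ultra Low Input kits and sequenced on Ion Torrent. The deposited gene counts had been made by the authors with STAR 2.4.0j on mm10 and featureCounts of Subread 1.5.2 on the Ensembl annotation, without strand, with a read over several genes counted for each; the authors also deposited TPM values, used in 1 alternative only. Positions are those of GENCODE vM21 (GRCm38, the same build), promoters those of RefSeq, and 37607 of 38924 identifiers had a symbol.

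Genes over 1 CPM in at least 3 of the 6 libraries were tested with edgeR 4.0.16 in R 4.3.3, with TMM factors (0.882 to 1.10), a quasi-likelihood fit over all 15 libraries with a mean per subtype, and p-values corrected by Benjamini-Hochberg (called at 0.05). The p-values set a difference against the spread between pools within all 5 subtypes, not within DC2s alone. A fit of only the 6 DC2 libraries called 3494 genes. The fit was tested on simulated data. The 55 gene lists and the naming rule (identity genes, the largest differences, and in each list up to 6 genes in each direction and 3 not past the threshold, with at least 10 CPM) were chosen with earlier results of these data known. Same-numbered LN and splenic libraries deviated together (correlations of 0.238, 0.292 and 0.312, others from -0.329 to 0.0224). This pairing comes from the data and no label explains it, so fits with the replicate number as a block were added. Alternatives were RLE and upper-quartile scaling, DESeq2 1.42.0, limma 3.58.1 on log2(TPM + 1), other filters, a fold minimum, the 6 libraries alone and leaving out each library. No pair of libraries of 1 group agreed within counting noise. Floors cover counting error only.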

Additional observations from a re-analysis of the deposited data

Results flagged for a closer look

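Each of the following genes had an organ effect (LN minus spleen, log2 scale) in DC2s that differed from the organ effect in DC1s by a test of the difference itself (edgeR's quasi-likelihood test, adjusted over all genes). They are the 4 most extreme differences in each direction among genes past the threshold in both comparisons. Where all libraries of a group were at 0 the fitted value depends on the prior count and is no bound.

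Ccr1 differed by 9.505 (adjusted p = 3.82e-06), and by 8.80 without LN library 1; it was at 21.9, 9.89 and 5.53 CPM in the LN libraries and 0.512, 0 and 0.495 CPM in the splenic libraries in DC2s and at 0.439 ± 0.296 CPM in the CD103+ DCs of the LN and 9.17 ± 1.60 CPM in the CD8+ DCs of the spleen. Cd300e, an activating receptor of monocytes, differed by 7.742 (adjusted p = 0.00157), and by 6.64 without LN library 2; it was lower in LN DC2s (log2 fold change -2.28 ± 0.51, adjusted p = 0.00212) and at 0 CPM in the CD103+ DCs of the LN and 17.7 ± 5.29 CPM in the CD8+ DCs of the spleen. Dll1 differed by 7.538 (adjusted p = 0.0358), a call lost without LN library 2 (adjusted p = 0.0569), LN library 3 (0.055), splenic library 1 (0.065) or splenic library 2 (0.0597); it was at 1.17 ± 1.33 CPM in the CD103+ DCs of the LN and 0.305 ± 0.342 CPM in the CD8+ DCs of the spleen. Rab7b differed by 7.294 (adjusted p = 4.22e-07), with levels given above.

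Cdh17, a cadherin of B cells and intestinal epithelium, differed by -11.27 (adjusted p = 3.54e-05); it was at 0 CPM in all 3 LN libraries and 22.6, 41.2 and 41.2 CPM in the splenic libraries, at least 242-fold lower in LN DC2s, and at 2.25 ± 1.80 CPM in the CD103+ DCs of the LN and 1.93 ± 0.804 CPM in the CD8+ DCs of the spleen. Cd101 differed by -7.448 (adjusted p = 1.77e-06). Slc45a3, a membrane transporter, differed by -7.339 (adjusted p = 0.000603), and by -9.22 without LN library 1; it was at 0.107, 0 and 0 CPM in the LN libraries and 10.4, 13.8 and 14.2 CPM in the splenic libraries and at 1.74 ± 1.55 CPM in the CD103+ DCs of the LN and 2.06 ± 0.502 CPM in the CD8+ DCs of the spleen. Dll4 differed by -6.931 (adjusted p = 0.00853) and was at 9.14 ± 2.05 CPM in the CD103+ DCs of the LN and 0 CPM in the CD8+ DCs of the spleen. On log2(TPM + 1) its difference was -0.68 with limma's adjusted p = 0.425, the 1 alternative other than those for Dll1 under which a call of these 8 genes was lost.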

How the results depend on the processing

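Under the alternatives, 4585 genes called between LN and splenic DC2s became 3235 to 5153, and 3862 to 4521 when 1 library was left out. Genes higher in LN DC2s numbered 1962 to 2898 (2252 to 2590 with a library left out) and genes lower 1273 to 2255 (1610 to 1931). The lowest value, 1273 against 1982, came from requiring a log2 fold change of at least 1 in size, which by its construction removes calls. Genes whose organ effect differed between DC2s and DC1s numbered 1237 to 2145 (1191 to 1798 with a library left out), of which 635 to 1116 were more positive (615 to 974) and 602 to 1084 more negative (576 to 824). The replicate block gave 5153 and 2145 and changed the call of 604 genes. Beside the genes and lists for which a blocked value is printed above, the pairing changed no call between the organs of a gene named in the report. Of 534 named genes 434 kept their side of the threshold under every alternative run, and none reversed. Of 1760 recomputed counts of list members called in a direction, 108 moved by over 1.5 times, and those of the pathway lists that moved when 1 library was left out stand beside the list. A count is limited by depth for genes near 1 CPM, about 5 to 9 counts in a library, where a difference may not be detectable.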
